A study of Mus musculus with 18 samples.

Results

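The 4 mouse Hox clusters hold 39 genes that carry a symbol of the form Hoxa, Hoxb, Hoxc or Hoxd with a paralogue number. All 39 were among the 35976 symbols of a table of TPM from mouse colon tissue. TPM is transcript abundance per length, scaled to a fixed total per library. The members were taken by symbol alone: 11 of HoxA on chromosome 6, 10 of HoxB on chromosome 11, 9 of HoxC on chromosome 15 and 9 of HoxD on chromosome 2. The table covers 18 libraries, 6 from mice with colitis that were given ISM012-042, 6 from mice with colitis that were given vehicle, and 6 from sham mice, all collected on day 2. The colitis of the first 2 groups was induced with trinitrobenzenesulfonic acid (TNBS), a hapten that inflames the colon, and ISM012-042 is, by the title of the series, a gut-restricted inhibitor of prolyl hydroxylases (PHD), enzymes that mark hypoxia-inducible factors for breakdown. Each library came from about 100 mg of colon tissue. The labels give no strain, sex, age, dose or place of sampling along the colon, and although the description of each library ends in a number of its own, they do not say that it marks a separate mouse, so a p-value here covers only how much these libraries vary, which may be technical in part.

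Hox proteins are homeodomain transcription factors whose genes lie in clusters, and genes of low paralogue number are used in anterior parts of the body and genes of high number in posterior parts. Much of this positional code persists in the adult, so that cells of the gut and its mesenchyme keep a combination of Hox genes that fits their place between stomach and anus. Paralogue group 13, at the posterior end, is known in the mouse for the hindgut, the anorectal region and the genital tract. In whole tissue, fewer cells of a type and less RNA per cell cannot be told apart.

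The promoters of a pair of members whose level went up with that of Hoxb13 between libraries (Hoxa13 and Hoxd13) and of a pair whose level went down (Hoxb8 and Hoxd4) are printed from RefSeq on GRCm38.p6, the assembly also known as mm10, 5′ to 3′ from 250 bases before to 50 bases after the transcript start. Capitals mark matches to CAATAAA or TCGTAAA on either strand (TTTATTG and TTTACGA on the other), letters that paralogue 13 proteins are known to bind in vitro.
Hoxa13 (chr6:52260831-52261130, minus strand): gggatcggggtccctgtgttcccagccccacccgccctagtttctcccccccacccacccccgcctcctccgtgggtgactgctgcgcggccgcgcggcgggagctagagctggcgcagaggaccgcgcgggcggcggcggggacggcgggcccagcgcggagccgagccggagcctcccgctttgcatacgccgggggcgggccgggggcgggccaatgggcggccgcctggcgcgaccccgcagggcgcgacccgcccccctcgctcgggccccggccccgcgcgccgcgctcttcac
Hoxd13 (chr2:74667975-74668274, plus strand): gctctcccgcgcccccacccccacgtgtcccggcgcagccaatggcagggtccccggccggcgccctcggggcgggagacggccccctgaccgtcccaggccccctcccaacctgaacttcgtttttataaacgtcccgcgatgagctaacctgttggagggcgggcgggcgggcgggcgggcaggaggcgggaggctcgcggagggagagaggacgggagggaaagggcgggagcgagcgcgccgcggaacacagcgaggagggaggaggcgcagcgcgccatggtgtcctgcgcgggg
Hoxb8 (chr11:96281655-96281954, plus strand): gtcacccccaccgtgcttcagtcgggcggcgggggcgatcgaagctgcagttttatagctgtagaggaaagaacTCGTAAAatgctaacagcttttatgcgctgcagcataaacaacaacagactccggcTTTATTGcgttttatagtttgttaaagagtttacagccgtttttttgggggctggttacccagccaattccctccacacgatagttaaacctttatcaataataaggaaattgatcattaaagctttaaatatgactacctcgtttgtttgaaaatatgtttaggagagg
Hoxd4 (chr2:74721728-74722027, plus strand): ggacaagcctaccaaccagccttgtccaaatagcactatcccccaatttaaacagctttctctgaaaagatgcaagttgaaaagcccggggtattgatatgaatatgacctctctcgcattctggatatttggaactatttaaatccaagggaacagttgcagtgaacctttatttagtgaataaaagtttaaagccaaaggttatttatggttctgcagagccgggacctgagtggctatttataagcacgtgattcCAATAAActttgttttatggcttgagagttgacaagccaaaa
The windows of Hoxa13 and Hoxd13 hold neither motif and are rich in CpG, with 45 and 37 CpG dinucleotides against a median of 7 over all 32851 promoters of the table. The Hoxb8 window holds 13 CpG, 1 match to TCGTAAA starting 176 bases and 1 to CAATAAA starting 120 bases before the start. The Hoxd4 window holds 4 CpG and 1 match to CAATAAA starting at base 9 after the start. Of 24 promoters of 22 Hox genes in the table, 2 (8.33%) hold CAATAAA, against 4.60% of all promoters, and 2 (8.33%) hold TCGTAAA, against 0.597% of all. The Hoxb8 and Hoxd4 windows printed here are the only 2 with CAATAAA, and the other TCGTAAA match is in Hoxd11. Hoxb4, Hoxd3, Hoxd8 and Hoxd9, which also went down, hold neither motif and 6 (Hoxd8) to 20 (Hoxd3 and Hoxd9) CpG. Hoxa6, Hoxa9 and Hoxa10, which also went up, hold 4 (Hoxa9) to 26 (Hoxa6). The table holds no promoter for 17 members, Hoxb13 among them. A match is a description of these letters only.

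Of the 39 members, 26 reached at least 1 TPM in at least 6 libraries and were tested, 10 of HoxA, 9 of HoxB and 7 of HoxD, among 14129 tested symbols. The HoxC cluster was nearly silent: its summed level was 0.399 to 1.92 TPM in ISM012-042 libraries, 0.176 to 2.03 in vehicle libraries and 0.131 to 1.82 in sham libraries, and its highest single value was 0.859 TPM (Hoxc6, in vehicle replicate 4). Hoxc12 and Hoxc13 were listed at 0 in all 18 libraries, and Hoxb1 in 17. The most anterior genes were also low: the paralogue group 1 members together reached 0.769 TPM in ISM012-042, 0.718 in vehicle and 0.815 in sham libraries. Hoxd12 was above 1 TPM in 3 libraries, ISM012-042 replicate 2 (1.87 TPM), sham replicate 3 (1.11) and sham replicate 5 (1.94).

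TPM divides by transcript length, so levels can be set side by side between members. Hoxb13 was the most abundant by its mean over all libraries (107 TPM), followed by Hoxb9 (29.2), Hoxa13 (25.2), Hoxa10 (21.4) and Hoxd13 (17.3). Hoxb9 was the steadiest of these, at 15.6, 39.9 and 44.8 TPM (lowest, median and highest of 6) in ISM012-042 libraries, 13.2, 26.2 and 51.5 in vehicle libraries and 18.5, 22.0 and 26.9 in sham libraries. The ranges of these 5 genes over the 18 libraries overlapped, so their order by mean does not hold in every library, and Hoxb9 had the highest minimum (13.2 TPM). Whether reads were counted by strand is not given, and 16 members share annotated exon bases with another gene, 10 of them with a gene on the opposite strand. Among these are Hoxa11 with Hoxa11os (800 bases), Hoxb3 with Hoxb3os (2250 bases) and Hoxd3 with Hoxd4 (388 bases on the same strand), and their values may hold reads of the partner.

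As a check of the tissue, the 7 epithelial markers summed to 7207 to 9275 TPM in ISM012-042, 4779 to 10616 in vehicle and 6705 to 11182 in sham libraries. The 5 neutrophil markers summed to 40.1 to 6566 TPM in ISM012-042 and 165 to 24613 in vehicle, against 4.67 to 24.8 in sham libraries. Between 12681 and 14632 symbols reached 1 TPM in a library. The files hold TPM only, so the sequencing depth is unknown.

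**Figure D1:**
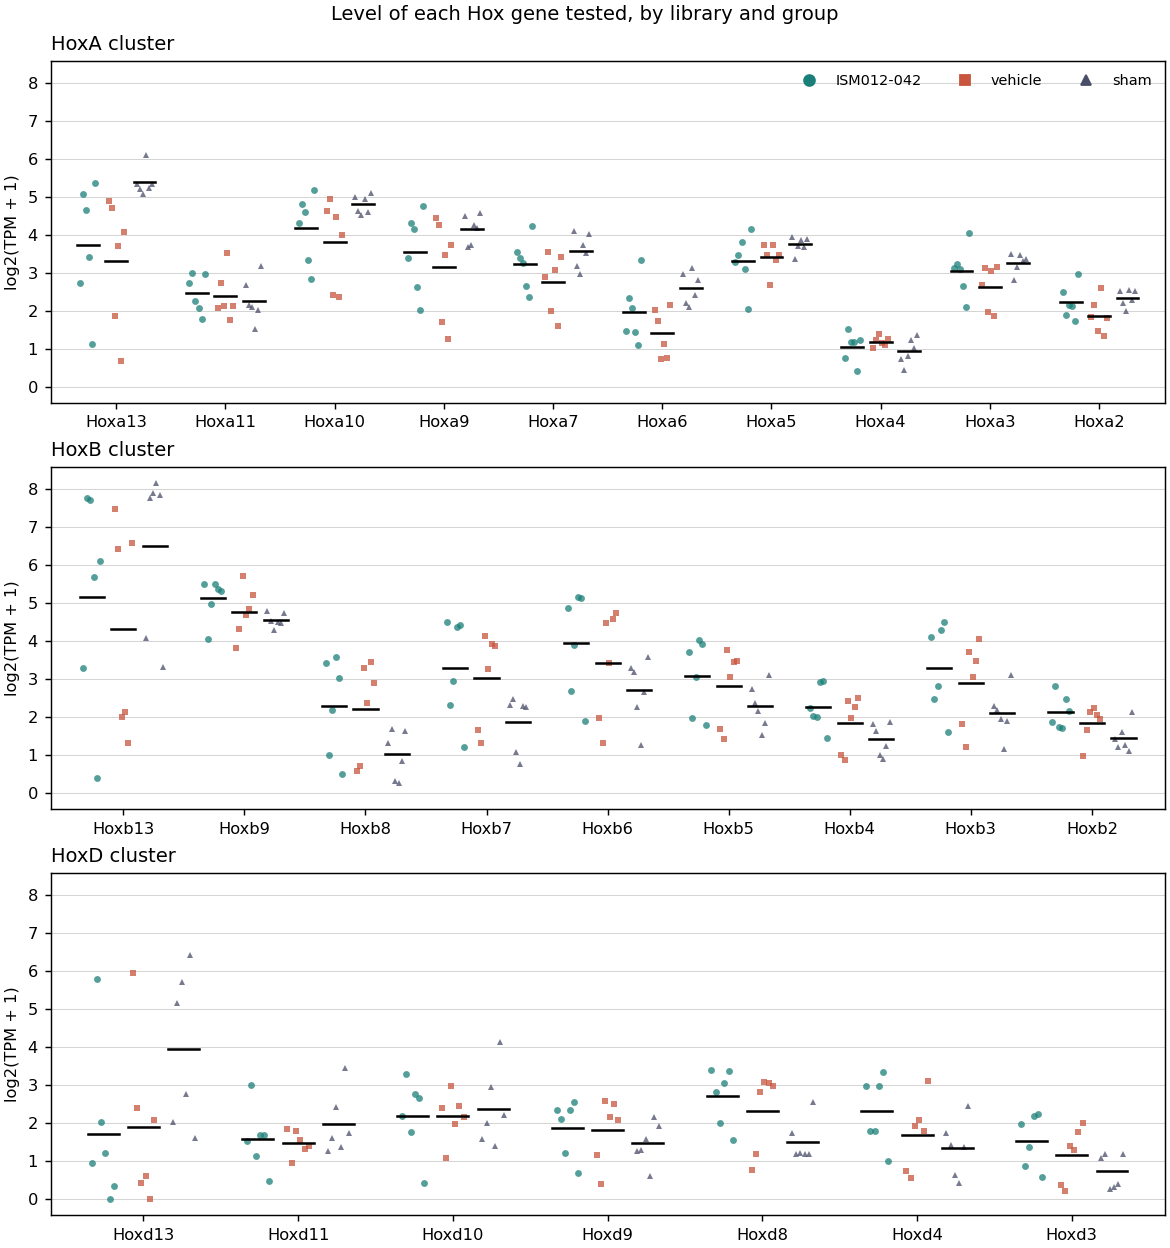
Level of the 26 tested Hox genes, log2(TPM + 1), by cluster and falling paralogue number. Each point is 1 library (6 each of ISM012-042, vehicle and sham, left to right) and the bar is the group mean. Hoxb13 runs from 0.329 to 288 TPM. The HoxA points of sham lie closer together than those of both TNBS groups, except for Hoxa11 and Hoxa4.

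The level of Hoxb13 differed more between libraries than that of nearly any other gene. It was 0.329, 59.7 and 219 TPM (lowest, median and highest) in ISM012-042 libraries, 1.52, 43.9 and 179 in vehicle libraries and 9.05, 224 and 288 in sham libraries. Libraries of high and of low Hoxb13 occurred in all 3 groups, and the groups overlapped. Its standard deviation within groups, 2.63 on the log2(TPM + 1) scale, was at the 99.9th percentile of the tested genes, and its values spanned 7.76 log2 units. The largest gap between neighbouring libraries in that order was 1.60 log2 units, between sham replicate 1 (16.1 TPM) and ISM012-042 replicate 4 (50.7 TPM), so the libraries did not fall into 2 plainly separate sets. Hoxd13, a partner of Hoxa13 in anorectal and genital development in the mouse, came next among the members, with a standard deviation of 2.13 (99.8th percentile). As a group, 25 of the 26 tested members varied more within groups than the median tested gene (standard deviation 0.37) and 14 more than its 90th percentile (0.73); Hoxa4 was the exception (0.31).

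Hoxd13 was at 0, 1.15 and 54.6 TPM in ISM012-042 libraries, 0, 1.90 and 61.5 in vehicle libraries and 2.09, 20.5 and 84.6 in sham libraries. Its 5 highest values, 35.0 to 84.6 TPM, were in ISM012-042 replicate 2, vehicle replicate 1 and sham replicates 2, 3 and 5, all of them with at least 179 TPM of Hoxb13. The reverse did not hold: sham replicate 4, the library of highest Hoxb13, had 5.88 TPM of Hoxd13, and ISM012-042 replicate 3, with 211 TPM of Hoxb13, had 3.09. Hoxa13 was at 1.19, 17.1 and 40.4 TPM in ISM012-042 libraries, 0.630, 14.05 and 28.7 in vehicle libraries and 33.1, 38.1 and 68.0 in sham libraries. Every vehicle library lay below every sham library for Hoxa13, though how many of all tested genes part in this way was not counted. In ISM012-042, 1 library (replicate 6, 40.4 TPM) lay within the sham range. The 3 members of paralogue group 13 that were expressed therefore had different patterns over the same 18 libraries, and together they made up 0.704% to 65.1% of all Hox TPM in ISM012-042, 1.39% to 70.0% in vehicle and 20.03% to 72.5% in sham libraries.

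Among the next HoxA genes, Hoxa10 and Hoxa9 followed Hoxa13 in the TNBS groups. Hoxa11, which lies between Hoxa13 and Hoxa10, did not do so in vehicle libraries. It was at 3.27 and 3.38 TPM in vehicle replicates 1 and 3, where Hoxa13 was at 28.7 and 2.68 TPM. Its highest value, 10.6 TPM, was in vehicle replicate 4, where Hoxa13 was at 12.2 TPM. Hoxa10, known for patterning of the uterus and the lumbar spine, was at 6.25, 21.1 and 35.8 TPM in ISM012-042 libraries, 4.23, 18.4 and 30.2 in vehicle libraries and 22.2, 26.8 and 33.6 in sham libraries. Hoxa9, known in blood stem and progenitor cells, was at 3.10, 13.3 and 26.3 TPM in ISM012-042, 1.43, 11.3 and 20.8 in vehicle and 11.9, 17.8 and 23.0 in sham libraries. The low values were in the same libraries for both, vehicle replicates 3 and 5 and ISM012-042 replicates 5 and 4, and no sham library was that low. The HoxA sum was 28.0 TPM in ISM012-042 replicate 5, 26.3 in vehicle replicate 5 and 28.3 in vehicle replicate 3, against 106 to 169 TPM in the 6 sham libraries. Sham replicates 1 and 6 had little Hoxb13 (16.1 and 9.05 TPM) but HoxA sums of 152 and 156 TPM. In vehicle replicate 4, too, low Hoxb13 (3.40 TPM) went with a higher HoxA sum (89.8 TPM), so that low HoxA was seen in some libraries of low Hoxb13 and not in others.

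The middle of the HoxB and HoxD clusters behaved the other way round. Hoxb6 was at 2.77, 21.2 and 34.9 TPM in ISM012-042 libraries, 1.51, 15.6 and 25.7 in vehicle libraries and 1.42, 6.73 and 11.04 in sham libraries. Hoxb8, known in mouse myeloid progenitors, was at 0.429, 5.35 and 10.9 TPM in ISM012-042, 0.499, 5.35 and 9.89 in vehicle and 0.207, 1.16 and 2.26 in sham libraries. Hoxd8 was at 1.97, 6.70 and 9.64 TPM in ISM012-042, 0.711, 6.54 and 7.48 in vehicle and 1.29, 1.31 and 4.89 in sham libraries. Within each group the values spread over several fold and the groups overlapped for all 3 genes. The sum over Hoxb3 to Hoxb8 was highest in ISM012-042 replicates 4, 5 and 1 (106, 105 and 92.2 TPM) and lowest in sham replicate 4 (6.40 TPM), vehicle replicate 2 (7.55) and ISM012-042 replicate 6 (10.8). The library of highest Hoxb13 was thus the one of lowest Hoxb3 to Hoxb8, but high Hoxb13 did not always go with a low sum: vehicle replicate 6 had 95.6 TPM of Hoxb13 and 76.6 TPM of Hoxb3 to Hoxb8.

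**Figure D2:**
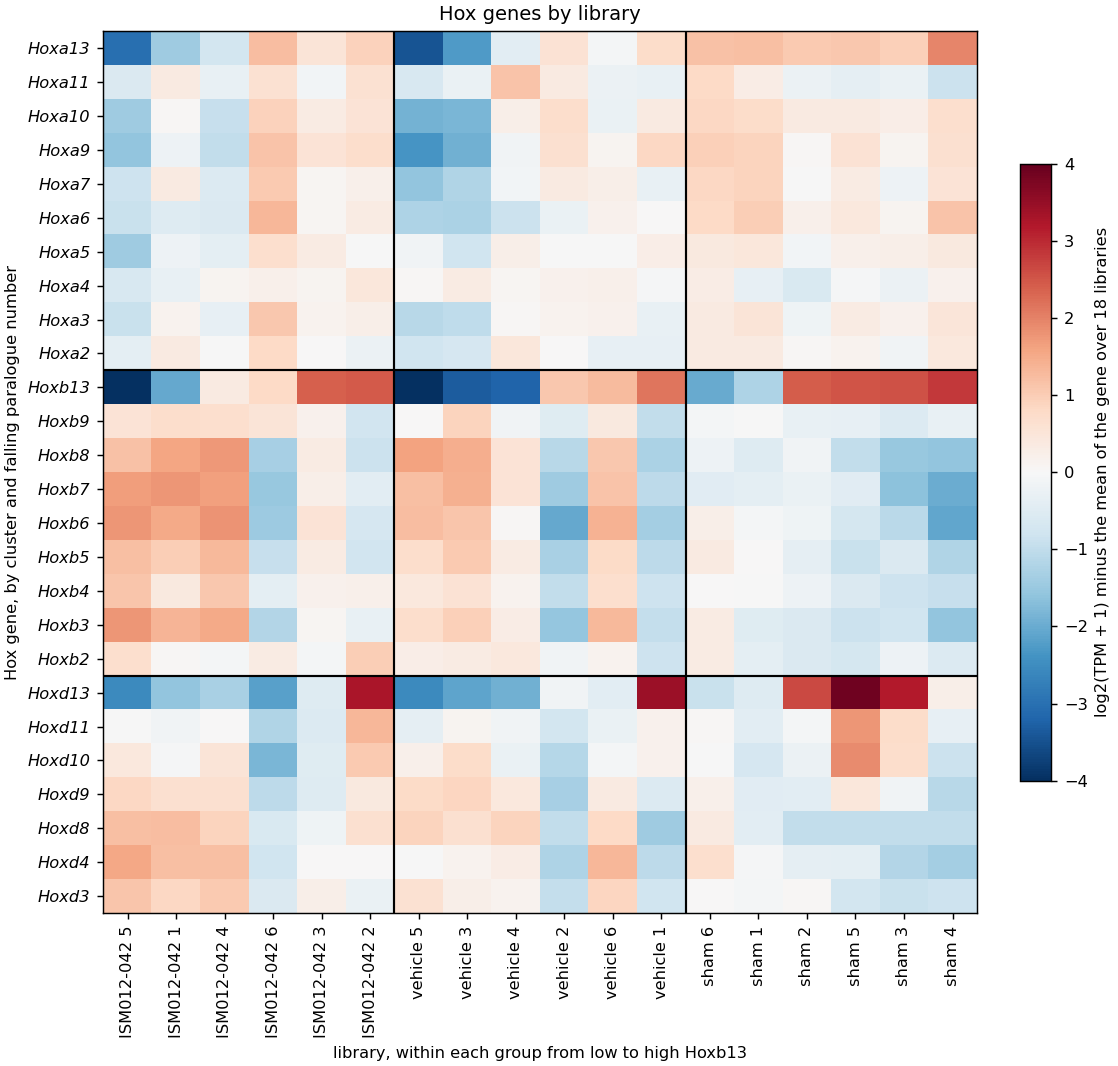
Level of the 26 tested Hox genes in each of the 18 libraries, log2(TPM + 1) minus the mean of the gene over all libraries (red above, blue below). Libraries stand by group, ISM012-042, vehicle and sham, and within a group from low to high Hoxb13. HoxA rows are bluest in ISM012-042 replicate 5 and vehicle replicates 5 and 3. Hoxb3 to Hoxb8 are red in these and also in ISM012-042 replicates 1 and 4 and vehicle replicate 6, and Hoxd13 is deep red in 5 libraries.

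To describe this order in 1 fit over all genes, each gene was regressed on the log2(TPM + 1) level of Hoxb13 with the group as a term, in limma with Benjamini-Hochberg adjustment. Of the 25 members other than Hoxb13, 5 (20%) had a slope above 0 that passed at an adjusted p under 0.05 and 11 (44.0%) a slope below 0. Over all 14128 other genes, 32.9% passed above 0 and 3.21% below 0. As deposited, the share of members with a positive slope was thus below the background and the share with a negative slope above it. The background turned on the scaling: with median-ratio scaling 1142 of 14110 genes passed above 0 and 1179 below 0, against 4654 and 454 as deposited. Of the 25 members, 2 then passed above 0 (Hoxd13 and Hoxa13) and 12 below 0. With that scaling the share of members above 0 was close to the background, and the share below 0 was still above it. The median slope was -0.03 over the members and 0.06 over all genes, in log2 units per log2 unit of Hoxb13. The members that rose with Hoxb13 were Hoxd13 (slope 0.61 ± 0.13 SE, limma adjusted p = 0.00491), Hoxa13 (0.41 ± 0.08, adjusted p = 0.00269), Hoxa9 (0.24 ± 0.07, adjusted p = 0.0235), Hoxa10 (0.18 ± 0.07, adjusted p = 0.0414) and Hoxa6 (0.13 ± 0.05, adjusted p = 0.0497). Over the whole span of Hoxb13 the fitted rise was 4.74 log2 units for Hoxd13 and 3.16 for Hoxa13.

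In HoxB all 8 slopes were below 0 and 7 passed. The steepest were those of Hoxb6 (-0.30 ± 0.09, limma adjusted p = 0.0242), Hoxb7 (-0.27 ± 0.08, adjusted p = 0.0223) and Hoxb8 (-0.27 ± 0.08, adjusted p = 0.0193). Hoxb3 (-0.25 ± 0.07), Hoxb5 (-0.23 ± 0.06), a gene with a role in enteric neural crest in the mouse, Hoxb4 (-0.14 ± 0.04) and Hoxb9 (-0.11 ± 0.04) also passed, and Hoxb2 did not (-0.08 ± 0.04, adjusted p = 0.0762). Hoxb13 itself has no slope here, since it is the axis, and its nearest expressed neighbour in the cluster, Hoxb9, had a slope below 0.

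In HoxD the slopes ran from positive to negative along the cluster. Hoxd13 stood at 0.61, Hoxd11 at 0.04 ± 0.06 and Hoxd10 at -0.02 ± 0.08, neither of which passed, and Hoxd9 (-0.16 ± 0.06), Hoxd8 (-0.23 ± 0.05), Hoxd4 (-0.20 ± 0.07) and Hoxd3 (-0.15 ± 0.05) fell with Hoxb13 (limma adjusted p from 0.00635 to 0.0346). In HoxA 9 of 10 slopes were above 0 and 4 passed, and none below 0 passed. Genes of the same paralogue number therefore differed in sign between clusters in this fit: Hoxa9 rose with Hoxb13, while Hoxb9 and Hoxd9 fell. With 1 library left out, the Hoxa9 call held in 15 of 18 fits and those of Hoxb9 and Hoxd9 in 11 each. In other settings they held in 5 of 13, 8 of 13 and 6 of 12. Within sham the sign did not differ, with slopes of -0.13 for Hoxa9 and -0.07 for Hoxb9 and Hoxd9. Hoxa6 rose and Hoxb6 fell, but the Hoxa6 call held in 6 of the 18 fits with 1 library left out and in 3 of 12 other settings, and within sham its slope was -0.09. At number 13, where Hoxb13 is the axis itself, Hoxa13 and Hoxd13 rose. At numbers 10 and 11 the slopes of Hoxd10 (-0.02 ± 0.08) and Hoxa11 (-0.03 ± 0.05) were slightly below 0 and did not pass. Their partners Hoxa10 (0.18 ± 0.07, which passed) and Hoxd11 (0.04 ± 0.06) were above 0. Since the slopes of Hoxd10, Hoxd11 and Hoxa11 were smaller than their errors, these signs cannot show whether number 13 differs from 10 and 11.

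**Figure D3:**
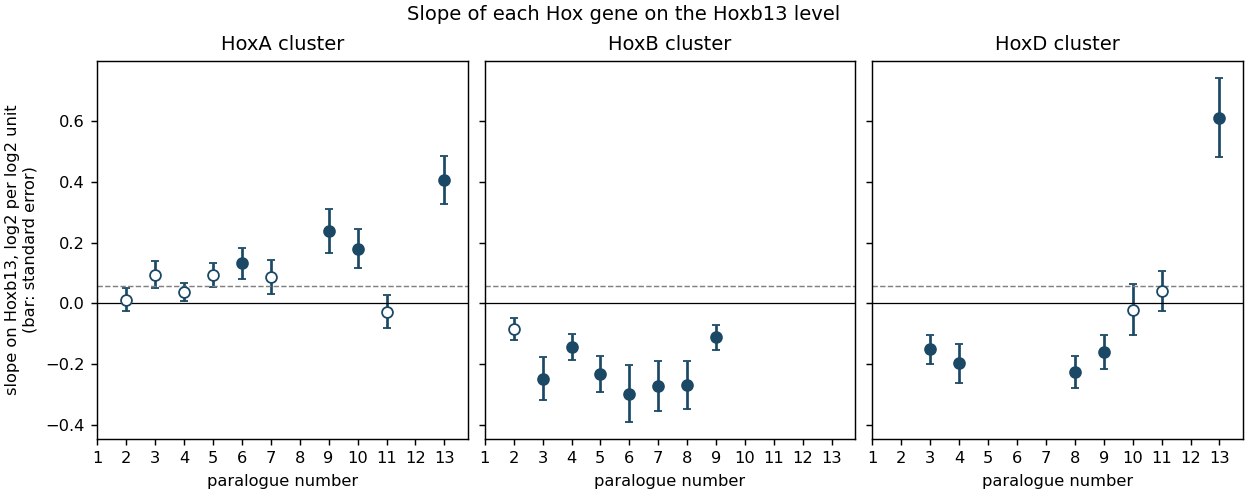
Slope of 25 Hox genes on the level of Hoxb13 (log2 per log2 unit, with its standard error) against paralogue number, by cluster. Filled points passed at an adjusted p under 0.05, open points did not, and the dashed line is the median slope of all genes, 0.06. HoxB slopes are all below 0, HoxD slopes run from 0.61 at number 13 to below 0 at 9 and under, and HoxA slopes are mostly above 0.

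These calls depended on a few libraries and on what else was in the model. The lowest 2 libraries of Hoxb13, ISM012-042 replicate 5 and vehicle replicate 5, are also the 2 farthest from its median, and with both left out only Hoxd13 rose and only Hoxd8 fell, so the other 14 calls were not kept without them. In that fit Hoxb6 was at -0.30 ± 0.12 (limma adjusted p = 0.121) and Hoxb8 at -0.29 ± 0.10 (0.0849), slopes as steep as before with larger errors, while Hoxa9 was at 0.14 ± 0.09 (0.271) and Hoxa10 at 0.09 ± 0.08 (0.420), less steep than before. With ISM012-042 replicate 5 alone left out, 2 members rose and 3 fell, without vehicle replicate 1 2 and 4, and without vehicle replicate 5 2 and 7; 3 members rose without ISM012-042 replicate 2 or 3 or vehicle replicate 2, 3 or 6. Hoxd13, Hoxa13, Hoxd8, Hoxb8 and Hoxb5 passed in each of the 18 fits with 1 library left out. The 16 called slopes kept their sign in every other setting and in every fit with 1 library left out. Fitted within sham alone, however, the slopes of Hoxa6 (-0.09), Hoxa9 (-0.13) and Hoxa10 (-0.09) were below 0. With the level of Hoxd13 in place of Hoxb13, 1 member rose (Hoxd11) and 1 fell (Hoxb9), and with that of Hoxa13 in place, 7 rose and 11 fell.

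Other measures moved along with Hoxb13. The 13 protein-coding genes of the mitochondrial genome took 20.1% to 57.8% of all TPM, with the highest share in vehicle replicate 5, and with this share as a further covariate no member passed in either direction, while 254 genes of 14128 still rose and 145 fell. In that fit the slope of Hoxd13 was 0.60 ± 0.19 (limma adjusted p = 0.0964) and that of Hoxb6 -0.22 ± 0.13 (0.417), with larger standard errors than before, while Hoxa13 was at 0.23 ± 0.09 (0.215) and Hoxa9 at 0.06 ± 0.08 (0.772). The 6 adipocyte markers (Adipoq, Cfd, Retn, Fabp4, Lep and Plin1) all had negative slopes and 4 passed, against 3.21% of all genes. Their summed level was 185, 2314 and 3972 TPM (lowest, median, highest) in ISM012-042, 28.2, 799 and 3115 in vehicle and 21.3, 72.5 and 3289 in sham libraries, and Adipoq, which encodes adiponectin, was listed at 0 in sham replicates 3 and 4. With the log2 sum of these markers as a covariate, an alternative chosen after seeing the data, Hoxd13 and Hoxa13 rose and no member fell, with Hoxb6 at -0.16 ± 0.10 (limma adjusted p = 0.205) and Hoxd4 at -0.06 ± 0.06 (0.389). The fibroblast list had 3 of 7 genes that rose (Col1a1, Col1a2 and Col3a1), against 32.9% of all genes. Of the 3 squamous markers tested, Krt13 (0.55 ± 0.11) and Krt14 (0.18 ± 0.07) rose and Sprr1a had a slope of -0.01 ± 0.11. The part of the fibroblast and squamous lists in the Hox slopes was not tested.

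**Figure D4:**
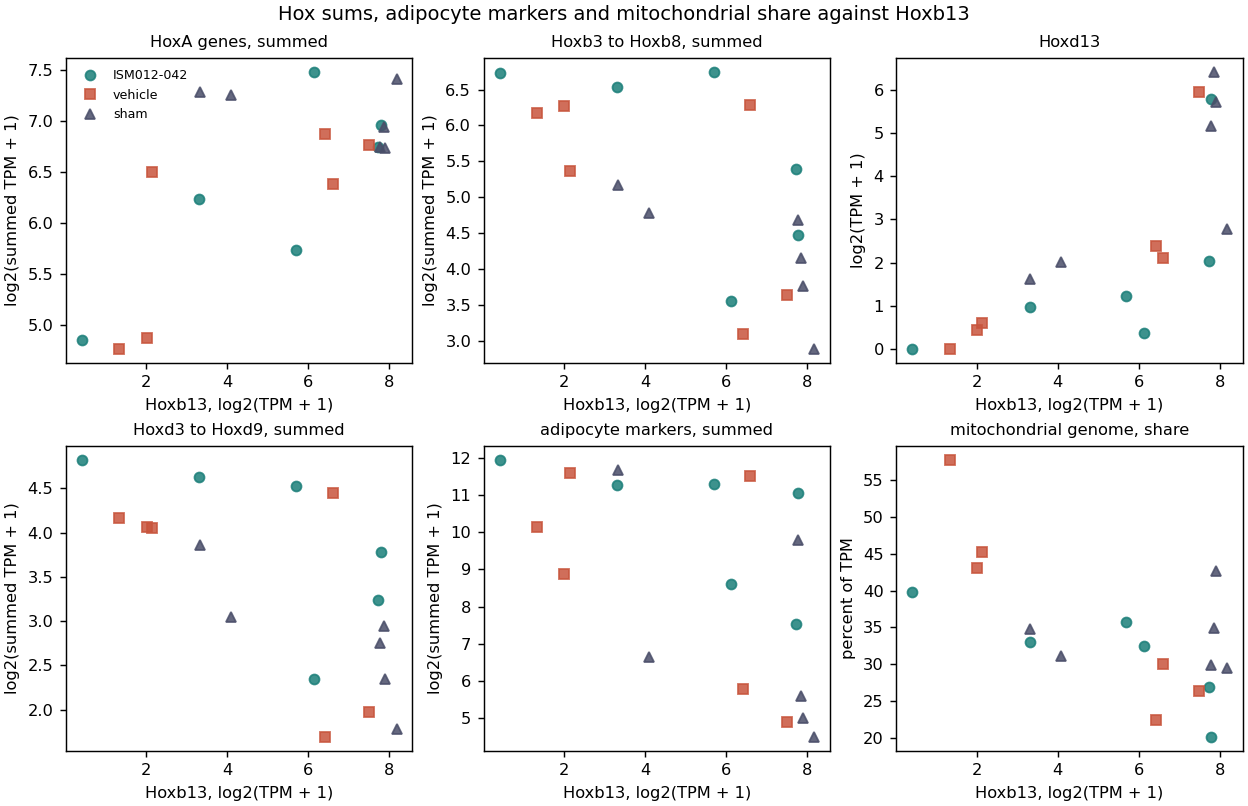
Measures (vertical axes, log2 of TPM + 1 or percent of TPM) against the Hoxb13 level of the same library, log2(TPM + 1), for ISM012-042, vehicle and sham libraries. Sums of Hoxb3 to Hoxb8 and Hoxd3 to Hoxd9 are lower at high Hoxb13, as are the adipocyte markers and, in the TNBS groups, the mitochondrial share, while the HoxA sum of sham lies between 106 and 169 TPM at all levels of Hoxb13.

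Slopes fitted within each group, given as values with no test, had the same sign in all 3 groups for 14 of the 25 members: all 8 of HoxB, Hoxd3, Hoxd4, Hoxd8, Hoxd9, Hoxd13 and Hoxa13. For Hoxb6 they were -0.30 in ISM012-042, -0.31 in vehicle and -0.28 in sham libraries. For Hoxd13 they were 0.48, 0.68 and 0.72 in the same groups. Hoxa13 had 0.53 in ISM012-042, 0.51 in vehicle and 0.03 in sham, a slope near 0 in sham. The other 9 HoxA genes did not have 1 sign in all 3 groups, and Hoxa9 had 0.29, 0.41 and -0.13. A term for the difference between the TNBS groups and sham, added after the data had been seen, gave a slope of 0.35 for Hoxa9 in the TNBS groups against -0.13 in sham (difference 0.48 ± 0.13 SE, limma adjusted p = 0.134). It passed for 0 of the 25 members and for 3 of 14128 genes. Its unadjusted p was under 0.05 for 7 members, all of HoxA, and for 4110 genes.

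Between the groups, no Hox gene passed the test. In vehicle against sham 0 of 26 members were higher and 0 lower, with a background of 0.326% higher and 4.13% lower; at an unadjusted p under 0.05, 6 members were lower and 0 higher, beside 2108 and 446 of all 14129 genes. In ISM012-042 against vehicle 0 members were higher and 0 lower, as for all genes (0% and 0%), and no member reached an unadjusted p under 0.05, which 2670 genes did above 0 and 18 below 0. In ISM012-042 against sham 0 members were higher and 0 lower, with a background of 0.545% higher and 0.871% lower, and 7 members were higher and 1 lower at an unadjusted p under 0.05, beside 2309 and 628 of all genes. Over all genes the split of calls moved with scaling: vehicle against sham gave 46 higher and 584 lower as deposited and 518 and 960 with median-ratio scaling, and ISM012-042 against sham 77 and 123 as deposited, 137 and 615 with median-ratio scaling and 729 and 398 with mitochondrial genes left out. These comparisons share libraries, so they are not independent of each other. A p that misses the threshold does not show that the levels were alike: the standard error of the Hoxb13 difference was 1.4 log2 units, and differences of several fold could not be told from the spread between libraries.

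The member nearest to the threshold was Hoxa6, a gene of the thoracic part of the axis, which was at 0.669, 1.79 and 3.52 TPM in vehicle libraries against 3.31, 5.22 and 7.86 TPM in sham libraries. The ranges overlapped by 1 vehicle library, replicate 6. Its log2 difference was -1.18 ± 0.35 (SE, limma adjusted p = 0.0584), and it passed with median-ratio scaling (limma adjusted p = 0.0202), with mitochondrial genes left out (0.0287), in a fit of these 2 groups alone (0.0435), and without vehicle replicate 1, vehicle replicate 6 or sham replicate 3. Hoxa13 differed by -2.06 ± 0.73 between vehicle and sham (adjusted p = 0.126), Hoxd13 by -2.04 ± 1.13 (0.366) and Hoxb13 by -2.19 ± 1.4 (0.444). In HoxA 8 of 10 members were lower in vehicle than in sham, with a median difference of -0.73, and in HoxB 8 of 9 were higher, with a median of 0.52, while the median over all genes was -0.07.

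In ISM012-042 against vehicle, 23 of the 26 members had a difference above 0 and 3 below 0 (Hoxd13, Hoxa4 and Hoxa5), with a median of 0.37 against 0.30 over all genes, and after median-ratio scaling the median over all genes was 0.0050. Hoxa2, a gene of the hindbrain and pharyngeal arches, had the smallest adjusted p, with 2.38, 3.45 and 6.84 TPM in ISM012-042 against 1.56, 2.55 and 5.10 in vehicle libraries (difference 0.36 ± 0.22 SE, limma adjusted p = 0.326). The ranges of these groups overlapped over most of their length. Hoxb13 differed by 0.84 ± 1.4 (adjusted p = 0.677), Hoxa13 by 0.40 ± 0.73 (0.702) and Hoxd13 by -0.19 ± 1.13 (0.913).

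In ISM012-042 against sham the members of lowest unadjusted p were anterior and middle genes. Hoxb2 was at 2.31, 3.06 and 6.03 TPM in ISM012-042 against 1.16, 1.55 and 3.44 in sham libraries (log2 difference 0.67 ± 0.24 SE, limma adjusted p = 0.157). Hoxd8, with the values given above, differed by 1.19 ± 0.43 (adjusted p = 0.160) and Hoxb4, known for the growth of blood stem cells, by 0.85 ± 0.32 (0.167), with 1.73 to 6.82 TPM in ISM012-042 and 0.88 to 2.65 TPM in sham libraries. All 3 had overlapping ranges. Hoxa13 differed by -1.65 ± 0.73 (adjusted p = 0.221), Hoxd13 by -2.23 ± 1.13 (0.262) and Hoxb13 by -1.35 ± 1.4 (0.555). With the Hoxb13 level as a covariate, an alternative chosen after seeing the data, 0 members passed in each of the 3 comparisons. The adipocyte list had 6 of 6 differences above 0 in each comparison and none passed, with summed levels as given above, and its part in the group differences of Hox genes was not tested.

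Non-coding RNAs and neighbours of the clusters were counted from a list of 28 symbols, 14 of which were tested. On Hoxb13 6 of these 14 rose and 1 fell, against 32.9% and 3.21% of all genes. Hottip, a non-coding RNA transcribed from the posterior tip of HoxA next to Hoxa13, was at 0.140, 4.57 and 17.0 TPM in ISM012-042, 0.0630, 2.31 and 7.5 in vehicle and 3.8, 11.2 and 42.8 in sham libraries, with a slope of 0.44 ± 0.06 (limma adjusted p = 0.000161). Hoxa11os, antisense to Hoxa11, was at 1.76, 24.6 and 70.9 TPM in ISM012-042, 2.40, 17.9 and 36.7 in vehicle and 58.6, 72.3 and 128 in sham libraries, with a slope of 0.41 ± 0.08 (adjusted p = 0.00296). Hoxa11 itself had a slope that did not pass, and the 2 genes share exon bases on opposite strands. For Hoxa11os every vehicle library lay below every sham library, as for Hoxa13, yet the difference did not pass (log2 difference -2.56 ± 0.74, limma adjusted p = 0.0583). How many of all tested genes part in this way was not counted. Skap2, Ttll6, Snx10 and the homeobox gene Evx1 beside Hoxa13 also rose with Hoxb13, and Hoxb5os, named after its value was seen, fell (-0.12 ± 0.04). Ttll6, a neighbour of the HoxB cluster, was the 1 gene of the list that passed between groups, lower in vehicle than in sham (log2 difference -1.70, adjusted p = 0.00766).

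Of the TALE homeodomain proteins, which bind DNA together with Hox proteins, 8 were tested, and on Hoxb13 2 rose (Pknox1 and Pbx2) and 0 fell. Of 19 Polycomb and MLL genes, which keep Hox genes silent or active, 7 rose, led by Men1, Cbx2 and Ezh2, and 0 fell. Both shares of rising genes, 2 of 8 and 7 of 19, stand against a background of 32.9%. Of 21 tested transcription factors of gut regions, 3 rose and 5 fell, against 32.9% and 3.21% of all genes. Foxa2 rose (0.29 ± 0.03, limma adjusted p = 2.2e-05), and Cdx2, a caudal-type homeobox gene of intestinal identity, fell (-0.19 ± 0.05, adjusted p = 0.00854). Cdx2 was at 47.3, 118 and 139 TPM in ISM012-042, 31.0, 95.7 and 132 in vehicle and 39.6, 58.9 and 136 in sham libraries, with overlapping groups.

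Among 26 regional genes of the colon 14 rose with Hoxb13 and 9 fell, against 32.9% and 3.21% of all genes. Insl5, a peptide hormone of distal colonic endocrine cells in the mouse, was at 1.66, 82.2 and 227 TPM in ISM012-042, 2.37, 35.2 and 230 in vehicle and 36.3, 246 and 269 in sham libraries (slope 0.76 ± 0.06). Pyy, another hormone of these cells (0.37 ± 0.03), Wfdc2 (0.61 ± 0.04) and Ly6g (0.80 ± 0.07) also rose. Among those that fell, named here after their values were seen, were Nts, which encodes neurotensin (-0.53 ± 0.12), and Fabp2, the intestinal fatty acid binding protein (-0.45 ± 0.11). The 2 kinds of genes were high in different libraries, but the list was chosen with earlier results of these data known, and the labels do not say where along the colon a sample was cut. The fit therefore describes libraries ordered by Hoxb13 and not measured positions.

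The 5 genes outside the clusters whose pattern was most like that of Hoxb13, by Pearson's r over 18 libraries in deviations from the group means, were Tgm3 (r = 0.98), Atp12a (0.98), Clic6 (0.98), Sval1 (0.97) and AI854703 (0.97). Tgm3 encodes a transglutaminase and Atp12a the non-gastric proton pump, and they ran from 0.538 to 538 TPM and from 0.446 to 373 TPM. The 5 least like it were Eva1c (r = -0.87), Hsd17b14 (-0.86), Pcp4 (-0.85), Cyp3a44 (-0.84) and 1810010D01Rik (-0.83). All points share their libraries and totals, and no p is given.

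**Figure D5:**
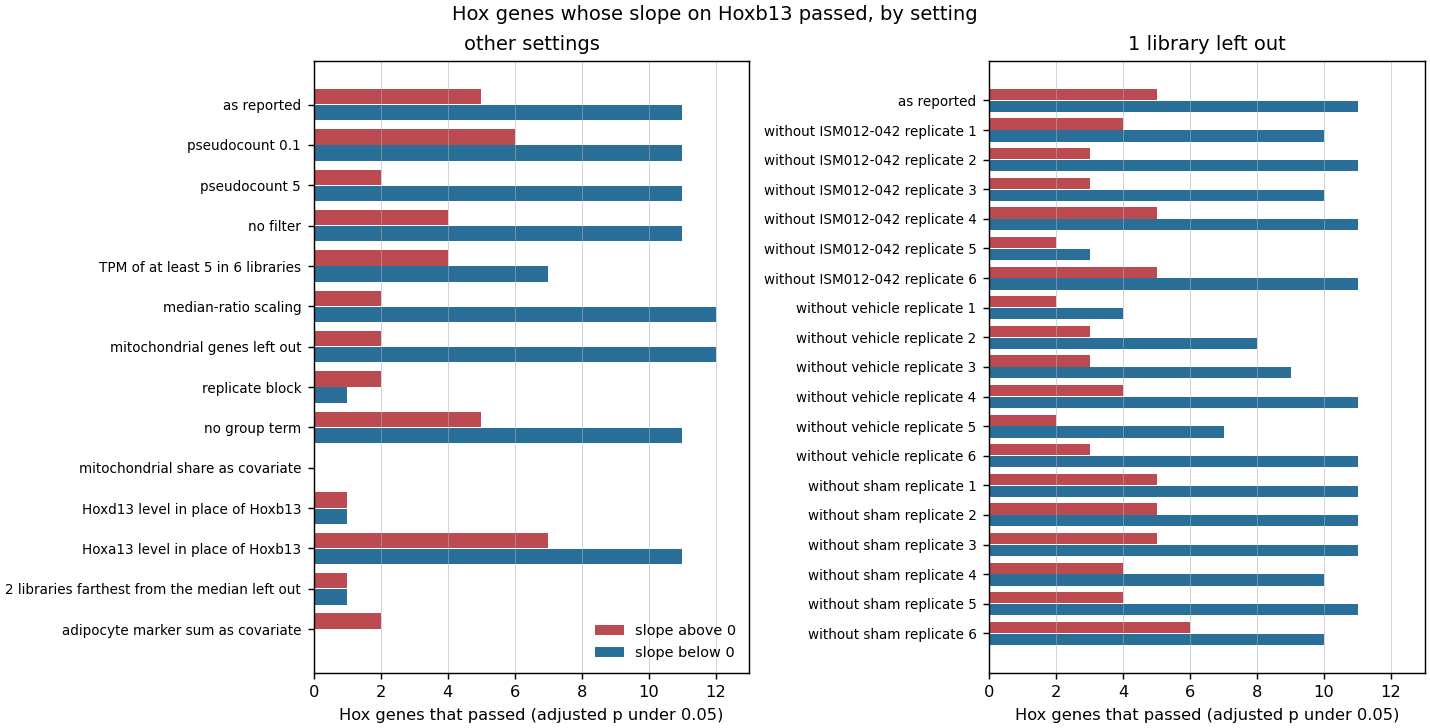
Number of Hox genes (of up to 25) whose slope on Hoxb13 passed at an adjusted p under 0.05, above 0 (red) and below 0 (blue), as reported and under each other setting (left) or with 1 library left out (right). As reported 5 rose and 11 fell. None passed with the mitochondrial share as a covariate, and without ISM012-042 replicate 5 2 rose and 3 fell.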

How the data were processed

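RNA was sequenced from 18 colon samples, and the authors deposited TPM per gene symbol in 1 table whose columns each sum to 1000000. DRAGEN 4.0.3 and mm10 are named in the submitters' processing notes; for the annotation, strandedness and counting, no statement is given in the sources used here. Because TPM is a share, the mitochondrial fraction of a library lowers every other value in it, and because no counts are given, no depth or counting interval can be had. Values were taken as log2(TPM + 1) for the 14129 symbols with at least 1 TPM in at least 6 libraries, and fitted in limma 3.58.1 (R 4.3.3; trend, robust) with group as the term, or with group and the Hoxb13 level, over all 18 libraries. Benjamini-Hochberg adjustment ran over all genes tested, with a threshold of 0.05; the procedure was tested on simulated data. A fold change on this scale understates that of low genes.

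Groups and replicate numbers came from the sample labels. The text names all Hox members by cluster and number, the 5 genes most and least like Hoxb13, and at most 6 genes of each list by unadjusted p, with exceptions named as such. The members, the lists and the use of Hoxb13 as the axis were chosen with earlier results of these data known. Promoters came from RefSeq on GRCm38.p6. Other pseudocounts, filters, scalings, covariates, a replicate block and leaving out each library were tried.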

Additional observations from a re-analysis of the deposited data

Results flagged for a closer look

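In each of 78 sets of 6 libraries (26 members in 3 groups) the highest and the lowest TPM were compared with the rest of the group. By Dixon's criterion 8 sets had a library that stood apart, in each case the highest of its set. Chance alone flags about 1 in 20 sets only if values are normally distributed, which was not tested for these TPM. Hoxd13 stood out at 54.6 TPM in ISM012-042 replicate 2, next to 3.09 TPM, and at 61.5 TPM in vehicle replicate 1, next to 4.26 TPM. Hoxd11 was at 7.01 TPM in the same ISM012-042 replicate 2 and at 10.05 TPM in sham replicate 5, where Hoxd10 was also apart at 16.6 TPM. These values are all from the posterior end of HoxD. The others were Hoxa13 at 68.0 TPM in sham replicate 4, Hoxa6 at 9.15 TPM in ISM012-042 replicate 6 and Hoxd8 at 4.89 TPM in sham replicate 6.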

How the results depend on the processing

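Of 867 alternative values of 33 named results, 703 kept their direction and side of the threshold, 138 kept the direction but no longer passed, 11 passed where they had not, and 15 changed sign. As reported, 5 members rose and 11 fell with Hoxb13. The members that rose numbered 2 with pseudocount 5, with median-ratio scaling, with mitochondrial genes left out and with the adipocyte sum as covariate (chosen after seeing the data), 1 with Hoxd13 in place of Hoxb13 or the 2 farthest libraries left out, and 0 with the mitochondrial share as covariate. Those that fell numbered 7 at a minimum of 5 TPM, where fewer members were tested, 1 with Hoxd13 in place or the 2 farthest libraries left out, and 0 with either covariate. With 1 library left out, 2 to 6 rose and 3 to 11 fell. In vehicle against sham 1 member was lower with median-ratio scaling, with mitochondrial genes left out and with only these groups, and 0 to 1 with 1 library left out. The cause was not tested.

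None of the sign changes was of a called value. The Hoxd10 slope became 0.00744 with pseudocount 5, 0.072 with the mitochondrial share, 0.19 with Hoxd13 in place, 0.024 without the 2 farthest libraries and 0.019 with the adipocyte sum, and ran from -0.059 to 0.0078 with 1 library left out (0.0058 without vehicle replicate 2, 0.000942 without vehicle replicate 3). The Hoxd11 slope became -0.053 with Hoxa13 in place, and -0.0016 to 0.062 with 1 library left out. For ISM012-042 against vehicle, Hoxd13 ran from -0.999 to 0.62 (0.16 without ISM012-042 replicate 5, 0.09 without replicate 6) and Hoxa13 from -0.12 to 0.93 with 1 library left out.

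Shared replicate numbers do not mark a shared animal in the labels, and same-numbered libraries did not deviate together: 6 of 18 pairs had a correlation over 0.1, with a range of -0.38 to 0.61, and 2 of 18 libraries correlated best with their own number. With the replicate block 2 members rose and 1 fell with Hoxb13, the Hoxd10 slope was 0.042, and 1 member (Hoxa6) was lower in vehicle than in sham (limma adjusted p = 0.0361).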
